A study of Mus musculus with 4 samples.

Results

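Abcb1a, Abcb1b, Abcb4, Abcg2, Abcc1 and Abcc4 encode ATP-binding cassette (ABC) transporters of the cell surface, the group to which the pumps that can carry fluorescent dyes out of a cell belong. They were taken by symbol, whatever their counts, and are 6 of the 32285 genes in the deposited matrices. The matrices come from CD31+ cells of C57BL/6J mouse embryos at stage E11.5, taken from the AGM, the region around the dorsal aorta that gives rise to the earliest haematopoietic stem cells. The cells were sorted by tetramethylrhodamine methyl ester (TMRM), a cationic dye drawn into mitochondria by the voltage across their inner membrane, into a low gate (MMPlow) and a high gate (MMPhigh), with 2 single-cell libraries each. No gene was altered and no agent other than the dye was given in any group, as far as the labels say. The labels do not say whether the libraries of a gate came from separate litters, so that the tests below measure the spread between these libraries, which may be technical. The question here was which cell types of each gate hold RNA of pumps that could lower a dye signal.

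ABC transporters spend ATP to move substrates across a membrane. P-glycoprotein, which mice make from the paired genes Abcb1a and Abcb1b, carries many lipophilic cations, a class to which TMRM and other rhodamine dyes belong, and it is best known from the endothelium of the brain, where it is part of the blood-brain barrier. Abcg2 is known for expelling the dye Hoechst from haematopoietic stem cells, Abcc1 and Abcc4 export organic anions, and Abcb4 moves phosphatidylcholine into bile. Protein, transport and dye loss were not measured here, so that all values are levels of RNA.

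The sort label was checked against the genes of the surface marker first. Pecam1, which encodes CD31, stood at 275 and 262 CPM (unique molecular identifiers, UMIs, of the gene per 1000000 UMIs) in MMPlow 1 and 2 and at 24.9 and 22.1 in MMPhigh 1 and 2. Cells that clustering named endothelial-like were 7699 (48.7%) and 8725 (47.3%) of the retained cells in the MMPlow libraries and 16 (0.363%) and 14 (0.411%) in the MMPhigh libraries, which therefore go against the CD31+ label. The number of retained cells was 15813 in MMPlow 1, 18442 in MMPlow 2, 4403 in MMPhigh 1 and 3408 in MMPhigh 2. Their median depth was 3087, 3641 and 3685 UMIs in MMPlow 1, MMPlow 2 and MMPhigh 1 and 23619.5 in MMPhigh 2, which stands apart. Within some classes both MMPhigh libraries were deeper than MMPlow, as in macrophage-like cells (2828 and 3140 UMIs against 15200 and 22420). In others, such as germ cell-like cells (3083 and 3952 against 3791 and 48840), only MMPhigh 2 was. Cluster 6, 46.2% of the cells of MMPhigh 1, had a median of 2823 there. Depth and gate cannot be told apart where they move together. Each pair of libraries shared between 14 and 369 barcode sequences, at most 2.309% of the smaller library. Cell class names end in "-like" because they were rebuilt here from marker genes, and clusters without a clear match keep a number.

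The P-glycoprotein genes and Abcb4 lie side by side on chromosome 5, and their promoters are shown because the 3 neighbours differed in the cells that held them. In GENCODE vM21, on GRCm38, which is the mm10 build of the submitters' processing notes, all 3 lie on the plus strand within 299.155 kb. Abcb1a (ENSMUSG00000040584) spans chr5:8660077-8748575, Abcb1b (ENSMUSG00000028970) follows after 49.571 kb at chr5:8798147-8866315, and Abcb4 (ENSMUSG00000042476) after another 27.401 kb at chr5:8893717-8959231. The other members lie on other chromosomes, with Abcg2 (ENSMUSG00000029802) at chr6:58584523-58695676 on the plus strand, Abcc1 (ENSMUSG00000023088) at chr16:14361558-14475737 on the plus strand and Abcc4 (ENSMUSG00000032849) at chr14:118482692-118706219 on the minus strand. RefSeq promoters of GRCm38.p6, each 300 bases from 250 before a start to 50 after it, were at hand for 5 of the 6 genes. Those of the 3 neighbours read as follows, on the plus strand and with the matches to CCAAT and GGGCGG on either strand in capitals.
Abcb1a promoter: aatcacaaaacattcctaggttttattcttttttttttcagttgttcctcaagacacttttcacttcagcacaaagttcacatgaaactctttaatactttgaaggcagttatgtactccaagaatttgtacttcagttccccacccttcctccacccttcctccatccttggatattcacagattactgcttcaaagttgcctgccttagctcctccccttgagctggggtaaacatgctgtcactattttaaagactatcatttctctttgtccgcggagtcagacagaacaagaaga
Abcb1b promoter: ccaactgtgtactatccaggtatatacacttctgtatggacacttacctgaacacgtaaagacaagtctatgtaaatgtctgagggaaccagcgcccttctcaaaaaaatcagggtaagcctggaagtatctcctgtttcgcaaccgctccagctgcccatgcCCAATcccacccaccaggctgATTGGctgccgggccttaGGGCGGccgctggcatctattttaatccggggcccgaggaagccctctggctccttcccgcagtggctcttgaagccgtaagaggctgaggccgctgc
Abcb4 promoter: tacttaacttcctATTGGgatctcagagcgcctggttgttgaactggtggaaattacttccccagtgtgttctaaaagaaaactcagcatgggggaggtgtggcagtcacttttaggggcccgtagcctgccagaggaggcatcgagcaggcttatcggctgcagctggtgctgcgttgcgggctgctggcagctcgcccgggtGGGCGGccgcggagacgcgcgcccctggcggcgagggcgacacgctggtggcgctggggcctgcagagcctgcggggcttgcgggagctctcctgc
They lie at chr5:8566841-8567140 (Abcb1a), chr5:8797897-8798196 (Abcb1b) and chr5:8893471-8893770 (Abcb4). The RefSeq start of Abcb1a lies 92.986 kb upstream of the GENCODE start, whereas the starts of Abcb1b and Abcb4 are 0 and 4 bases apart in the 2 annotations. Motifs of 7 kinds were searched on both strands. One was TATAAA, the box that the general transcription factor TFIID is known to bind. CCAAT is known as the site of factor NF-Y, and the GC box GGGCGG is known as the site of Sp1. AGATAA is bound by GATA factors, among them those of blood cells. CGGAAG is a core that proteins of the ETS family of endothelium and blood bind. CACGTG is the E-box of basic helix-loop-helix proteins. The last was TGACGTCA, the cyclic AMP response element. There was no overlap between the matches shown, and the Abcb1a window held none. The Abcb1b window held CCAAT at 87 and 66 bases before the start and GGGCGG at 48, and the Abcb4 window held CCAAT at 237 and GGGCGG at 46. Of all 32544 RefSeq promoter windows of this length, 37.4% hold CCAAT and 35.9% hold GGGCGG. The windows hold 40.3%, 55% and 64% G and C for Abcb1a, Abcb1b and Abcb4. The transcripts of the neighbours are also alike in sequence, since 889 of the 5459 stretches of 50 bases in Abcb1a transcripts (16.3%) recur in Abcb1b and 127 (2.33%) in Abcb4. Of the 981 stretches in the last 500 bases of Abcb1a transcripts, the end that 3' libraries read, 181 recur in Abcb1b and 0 in Abcb4. From which gene reads of shared stretches came is uncertain. Abcb1b further overlaps Gm5106 on the opposite strand.

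Abcb1a, the P-glycoprotein gene of barrier endothelium, was held mainly by endothelial-like cells in the MMPlow libraries. Endothelial-like cells held 309 and 463 of its UMIs there, 85.4% and 87.2% of all UMIs of the gene, at 10.3 CPM in MMPlow 1 and 11.9 CPM in MMPlow 2. In MMPhigh the few UMIs were spread more widely. Endothelial-like cells held 25.9% and 32.7% of them (7 and 17 UMIs), neural or neural crest-like cells 5 and 19 UMIs, germ cell-like cells 4 and 11 UMIs and cluster 6 10 and 0 UMIs. No other named class reached more than 3.54 CPM in either MMPlow library. The unnamed cluster 17 (9.06 and 4.91 CPM) lay below the endothelial-like class, and the range of cluster 27 (0 and 14.5 CPM) overlapped that class. The values of cluster 17 rest on 1 UMI in 23 cells of MMPlow 1 and 16 UMIs in 718 cells of MMPlow 2. With each cell thinned to 2000 UMIs, 1.99% and 2.23% of endothelial-like cells held a UMI of Abcb1a, against 0.206% and 0.145% of mesenchymal-like cells, a class not known for the gene. UMIs of Abcb1a outside the endothelium were set against those of Pecam1, Cdh5 and Emcn. These endothelial genes serve here as a gauge of endothelial RNA found in other cells, on the assumption that those cells do not make them. For each 100 UMIs of these 3 genes, endothelial-like cells held 0.545 and 0.587 UMIs of Abcb1a in MMPlow 1 and 2, mesenchymal-like cells 0.488 and 0.574, and macrophage-like cells 0.848 and 0.576. Per such UMI the mesenchymal-like class thus held about as much Abcb1a as the endothelium, and the macrophage-like class of MMPlow 1 more. The ratios outside the endothelium rest on few UMIs of Abcb1a, and the source of this RNA was not tested.

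Within the endothelium, Abcb1a differed between clusters more than between libraries. It was highest in cluster 2, led by Apcdd1, Palmd and Itga1, at 31.6 and 41.7 CPM from 1346 and 1619 cells of MMPlow 1 and 2. Next came cluster 16, led by the arterial connexin genes Gja5 and Gja4 and by Vegfc, at 21.3 and 22.8 CPM. The range of neither overlapped that of any other endothelial cluster. Cluster 0, led by Col15a1, stood at 9.07 and 7.36 CPM, and the remaining 4 clusters lay between 0.693 and 3.92 CPM. Of 10 genes listed for barrier-type endothelium, 8 had their highest mean in cluster 2 among the 7 endothelial clusters, including the glucose transporter Slc2a1 (283 and 292 CPM) and the lipid transporter Mfsd2a (12.65 and 13.8 CPM). Ocln (19.2 and 23.8 CPM) and Sox17 (136 and 189 CPM) were highest in cluster 16. Apcdd1, Lef1 and Foxq1 of that list were among the genes that led cluster 2 in the clustering, and their place there is a description. They are counted in the 8, and the list was chosen with earlier results of these data known. How many of all genes had their highest mean in cluster 2 was not counted, so that the 8 of 10 are no test of what cluster 2 is.

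**Figure D1:**
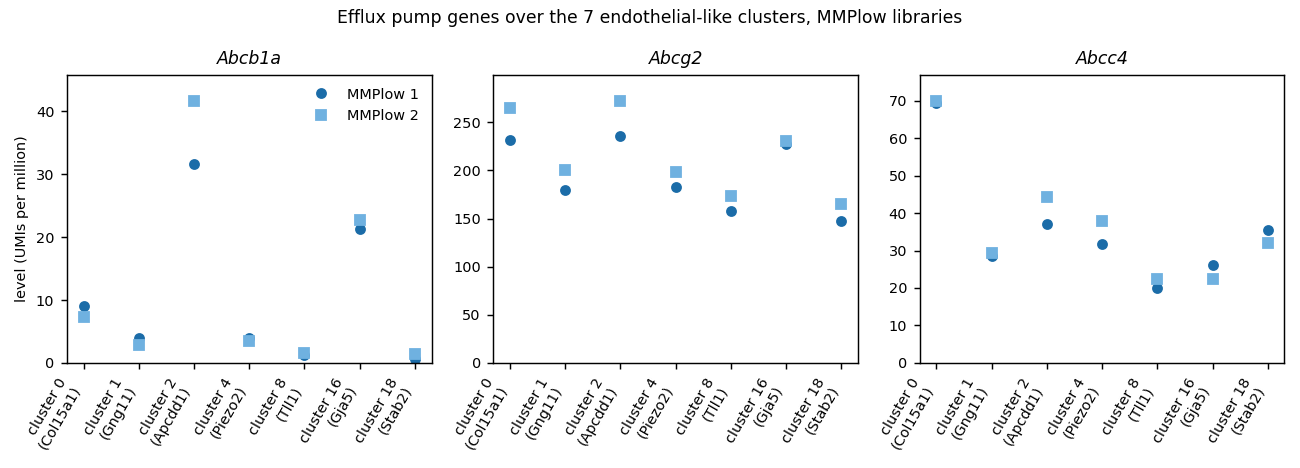
CPM (vertical axes) of Abcb1a, Abcg2 and Abcc4, 1 panel each, in the 7 endothelial-like clusters (horizontal axis) of the MMPlow libraries, each point 1 library. Abcb1a is highest in cluster 2, at 31.6 and 41.7 CPM, while Abcg2 lies between 148 and 272 CPM in all 7.

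Abcb1b, the P-glycoprotein gene of many other mouse tissues, followed another pattern and was highest in macrophage-like cells and an unnamed cluster. In macrophage-like cells, made up of clusters 10 and 11, it stood at 30.4 and 30.2 CPM in MMPlow 1 and 2 and at 19.96 and 29.6 CPM in MMPhigh 1 and 2, from 103, 146, 125 and 562 UMIs. The unnamed cluster 12, led by Mndal, Ccr2 and Gria3, was higher in every library, at 43.4, 40.3, 35.2 and 34.0 CPM. Neither class overlapped the other in either gate, and in the MMPlow libraries no other cluster or class exceeded 18.4 CPM. The macrophage-like cells of the gates were of different clusters: most were of cluster 10 (led by F13a1 and Mrc1) in MMPlow, at 33.2 and 35.5 CPM, and of cluster 11 (led by the complement genes C1qa, C1qb and C1qc) in MMPhigh. Cluster 11 alone stood at 21.3, 21.4, 19.8 and 29.6 CPM in the 4 libraries. Endothelial-like cells of MMPlow held 5.596 and 5.623 CPM, which made up 33.3% and 31.6% of the UMIs of the gene because these cells were many. In MMPhigh 2 the macrophage-like cells held 562 UMIs of Abcb1b and 1 of Abcb1a.

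Abcb4, the phospholipid transporter, was highest in erythroid-like cells and the unnamed cluster 5. Erythroid-like cells held 106.8 and 109 CPM in MMPlow 1 and 2 and 85.2 and 90.2 CPM in MMPhigh 1 and 2. The unnamed cluster 5, led by Gm15915, Muc13 and the haematopoietic transcription factor gene Myb, held 142, 107.6, 65.4 and 67.6 CPM. Abcb4 is itself the tenth of the genes that led cluster 5, so that its level there is partly a description of how the cluster stands out. The level was above that of erythroid-like cells in MMPlow 1 and below it in the other libraries. Cluster 5 and erythroid-like cells together held most of the UMIs of the gene, at 54.2% and 14.9% in MMPlow 1 and at 29.9% and 52.7% in MMPhigh 2. Cluster 27 of MMPlow, with 91 and 60 cells, stood at 39.5 and 75.4 CPM and megakaryocyte-like cells at 26.8 and 23.2 CPM. In endothelial-like cells Abcb4 stood at 3.66 and 2.80 CPM in MMPlow, and 0 UMIs were found in the 16 and 14 MMPhigh cells, where 3 UMIs would have been 12.2 and 8.57 CPM. A difference between the gates in the endothelium was therefore not detectable at this depth.

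Abcg2, the pump of the side-population stain, was found in every class with 10 or more cells, in every library, between 13.9 and 272 CPM. The highest named class was germ cell-like, at 245 and 240.1 CPM in MMPlow 1 and 2 and 173 and 182 CPM in MMPhigh 1 and 2, although the MMPlow values rest on 26 and 32 UMIs. Endothelial-like cells followed at 198, 222, 196 and 189 CPM. The germ cell-like class was above the endothelial-like class in both MMPlow libraries and below it in both MMPhigh libraries. Because endothelial-like cells were many in MMPlow, they held 63.7% and 62.2% of the UMIs of Abcg2 there, against 1.81% and 0.945% in MMPhigh. Haematopoietic progenitor-like cells stood at 115 and 119 CPM in MMPlow, below the megakaryocyte-like class (121 and 132 CPM) and above the macrophage-like class (94.99 and 84.99 CPM). Neural or neural crest-like cells held 77.7 and 73.8 CPM in MMPlow and 45.9 and 47.2 CPM in MMPhigh. This class took in clusters 7, 23 and 25, and the leading genes of cluster 25 go against its name in part, since the liver-type genes Afp, Alb, Apoa2 and Rbp4 stood among them beside Neurod1 and Isl1 of neurons. Cluster 25 had 33 and 25 cells in MMPlow and 134 and 84 in MMPhigh, with Abcg2 at 83.7, 96.4, 47.2 and 60.05 CPM. Among the 7 endothelial clusters Abcg2 ran from 148 to 272 CPM, with cluster 2 (236 and 272 CPM) and cluster 0 (232 and 264 CPM) at the top and their ranges overlapping.

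Abcc1, which exports glutathione conjugates such as leukotriene C4, was highest in haematopoietic progenitor-like cells. They held 203 and 208 CPM in MMPlow 1 and 2 and 154 CPM in MMPhigh 2, the latter from 15 cells. Granulocyte or mast-like cells followed at 105 and 99.4 CPM in MMPlow, then cluster 27 at 86.5 and 72.5 CPM and cluster 5 at 76.4 and 63.5 CPM, where the ranges of the last pair overlap. The progenitor-like class did not overlap any other class or cluster in MMPlow. After thinning to 2000 UMIs, 33.6% and 32.7% of its cells held a UMI of Abcc1, against 4.56% and 4.47% of endothelial-like and 2.56% and 2.96% of erythroid-like cells. Endothelial-like cells stood at 22.0 and 21.3 CPM, among the neural, mesenchymal-like and epithelial classes, which lay between 18.8 and 26.5 CPM in MMPlow.

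Abcc4, which exports cyclic nucleotides and prostaglandins, was highest in germ cell-like cells in MMPlow, at 104 and 75.04 CPM from 11 and 10 UMIs. In MMPhigh these cells held 43.9 and 58.3 CPM and came second to epithelial or mesonephric-like cells, which were higher in each library with overlapping ranges. Cluster 27 (71.65 and 60.9 CPM) and granulocyte or mast-like cells (44.1 and 57.4 CPM) came next in MMPlow, then cluster 5 (48.8 and 38.0 CPM) and the endothelial-like class (37.0 and 39.8 CPM), whose ranges overlapped. Within the endothelium, Abcc4 marked a different cluster from Abcb1a, since cluster 0 held 69.5 and 70.0 CPM and the other 6 clusters lay between 19.9 and 44.4 CPM. Epithelial or mesonephric-like cells stood at 21.4 and 30.3 CPM in MMPlow and at 52.9 and 74.8 CPM in MMPhigh, from 17, 30, 19 and 28 UMIs, and the MMPhigh UMIs came from 5 and 6 cells. Muscle progenitor-like cells were lowest in MMPlow at 3.498 and 4.82 CPM and held 1.04 and 3.11 CPM in MMPhigh.

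**Figure D2:**
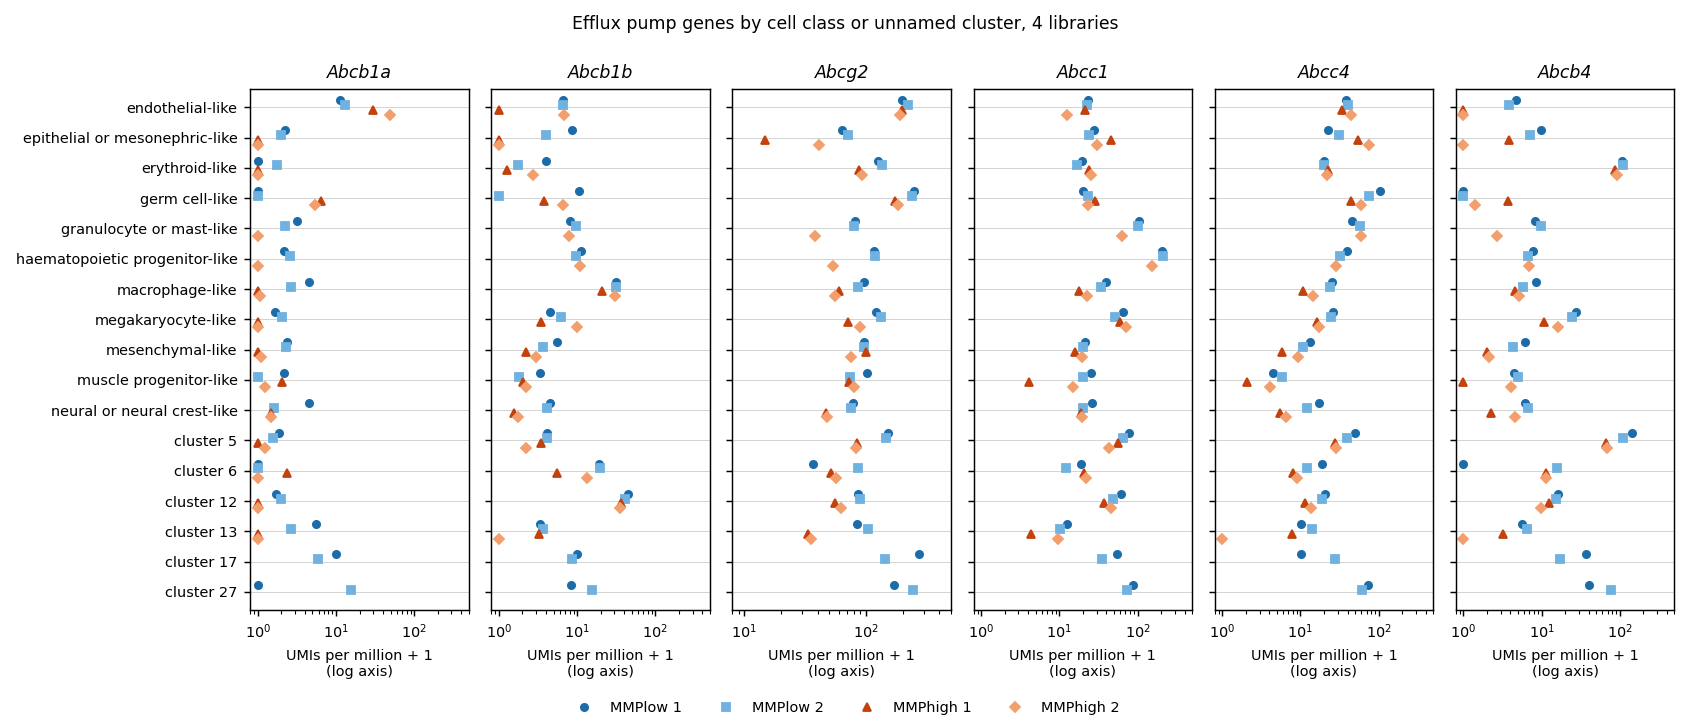
CPM plus 1 (horizontal axes, log scale) of each pump gene by cell class or numbered cluster (vertical axis), each point 1 library with at least 10 cells of that class. Abcc1 peaks in haematopoietic progenitor-like cells (203 and 208 CPM in MMPlow), Abcb1b in cluster 12 and macrophage-like cells and Abcb4 in cluster 5 and erythroid-like cells.

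The pump genes shared some clusters at the top of their order in MMPlow and differed in others. Cluster 27, with 91 and 60 cells, was among the highest 4 of 17 classes and clusters for all 6 genes, and cluster 5 among the highest 5 for Abcg2, Abcc1, Abcc4 and Abcb4. For Abcb1a and Abcb1b the place of cluster 27 rests on 0 and 5 UMIs and on 3 and 5 UMIs in MMPlow 1 and 2. Its range overlapped the next in order for both. Cluster 27 had no cells in MMPhigh and is not among the sums that follow. Over 52 sums (13 classes or clusters in 4 libraries), Pearson's r of log2(CPM + 10) between 2 members ran from -0.25 to 0.50, highest for Abcg2 with Abcc4 (0.503) and for Abcb1a with Abcg2 (0.487), and it was -0.0717 for the paired genes Abcb1a and Abcb1b. These sums share libraries and depth, and r is a description. By the same measure among 14724 genes, the closest neighbours of Abcb1a were Oit3 (0.911), the Notch ligand gene Dll4 (0.906) and Depp1 (0.89). This r compares whole classes and not clusters within the endothelium. Oit3 was among the leading genes of endothelial cluster 18, where Abcb1a stood at 0.693 and 1.44 CPM in MMPlow 1 and 2. The closest neighbours of Abcb1b were Ptpn22 (0.94), the DNA sensor gene Cgas (0.937) and the myeloid integrin gene Itgam (0.935). Abcb4 was nearest to Steap3 (0.945), a ferrireductase of erythroid iron uptake, Slc38a5 (0.944) and Aqp9 (0.938). The neighbours of the other 3 members were less close, with r between 0.80 and 0.82, and were led by Iqcg for Abcg2, Vps13a for Abcc1 and Adipor2 for Abcc4.

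Over all retained cells, 4 of the 6 pump genes were lower in MMPhigh, by edgeR's quasi-likelihood test on the summed UMIs with Benjamini-Hochberg adjustment over all 20416 genes tested. Of those genes 53.7% passed the same threshold of 0.05, and 26.5% passed it as lower in MMPhigh, so that passing it is common here. Abcb1a stood at 5.83 and 6.10 CPM in MMPlow 1 and 2 and at 0.656 and 0.488 CPM in MMPhigh 1 and 2. Its log2 fold of -3.40 (SE 0.22, adjusted p = 5.85e-06 in edgeR) was the largest of the 6, and the gates did not overlap. Abcg2 stood at 149.8, 159.5, 64.6 and 65.6 CPM, a log2 fold of -1.22 (SE 0.09, adjusted p = 1.19e-05 in edgeR). Abcc4 stood at 30.4, 30.4, 10.5 and 13.2 CPM, a log2 fold of -1.31 (SE 0.11, adjusted p = 3.39e-05 in edgeR). For both, each MMPlow library lay above each MMPhigh library by more than the spread within a gate.

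Abcc1 fell less, from 35.2 and 32.8 CPM in MMPlow to 21.8 and 25.2 CPM in MMPhigh (log2 fold -0.49, SE 0.09, adjusted p = 0.00274 in edgeR). Its call was lost when cells were held to at least 5000 UMIs and 2000 genes (log2 fold -0.10, adjusted p = 0.407 in edgeR). Abcb1b, at 8.13, 7.96, 5.93 and 8.21 CPM, did not pass the test (log2 fold -0.14, SE 0.16, adjusted p = 0.485 in edgeR), and the gates overlapped, with MMPhigh 2 the highest of the libraries and MMPhigh 1 the lowest. Abcb4, at 19.1, 17.5, 14.2 and 18.9 CPM, did not pass it either (log2 fold -0.10, SE 0.13, adjusted p = 0.543 in edgeR), and its gates overlapped too. It passed when every cell was thinned to 2000 UMIs (log2 fold -0.58, adjusted p = 0.0308 in edgeR). The median log2 fold of the 6 was -0.86, against 0.01 over all genes. Pecam1 moved in the same direction (log2 fold -3.49), and with bulk sums of this kind fewer cells of a class and less RNA per cell cannot be told apart.

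**Figure D3:**
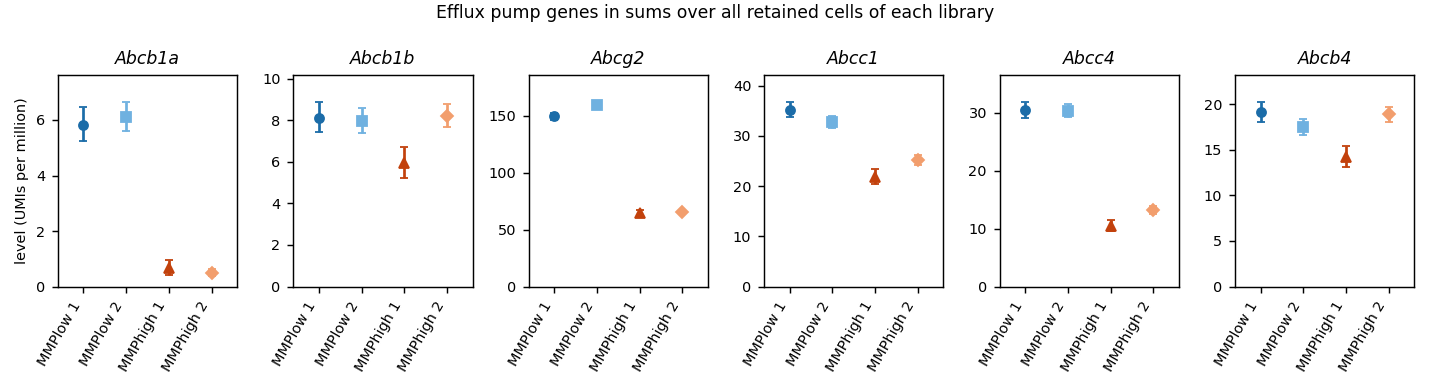
CPM of the 6 pump genes over all retained cells (vertical axes, 1 panel per gene) in the 4 libraries, each point 1 library and each bar its exact 95% Poisson interval, which covers counting error only. Abcb1a, Abcg2, Abcc4 and Abcc1 are lower in both MMPhigh libraries, and Abcb1b and Abcb4 overlap between the gates.

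How much of these differences lay in the numbers of cells of each class was described by an arithmetic split, over cells thinned to 2000 UMIs and with no test. For Abcb1a the difference of the gate means was -5.42 CPM (6.26 in MMPlow, 0.838 in MMPhigh), made up of -15.9 from class shares and 10.5 from levels within classes, and endothelial-like cells made up -5.26 of it. The level part came from the endothelial-like class (10.99 CPM), where 0 of 16 thinned cells of MMPhigh 1 and 3 of 14 of MMPhigh 2 held a UMI of the gene. For Abcg2 it was -93.8 CPM, with -38.0 from shares and -55.8 from levels. Of this level part, -34.8 CPM lay in endothelial-like cells, with the same 16 and 14 cells in MMPhigh. Without thinning, Abcg2 stood at 197.6 and 221.6 CPM in that class in MMPlow and at 195.5 and 188.5 CPM in MMPhigh. That difference did not pass the test (adjusted p = 0.666 in edgeR). For Abcc4 it was -24.5 CPM, with -9.70 and -14.8, and for Abcc1 -16.9 CPM, with -12.5 and -4.34. The endothelial-like class held the largest piece of the difference for Abcg2 (-99.1 CPM) and Abcc4 (-19.75 CPM). For Abcb1b pieces of opposite sign nearly cancelled, with macrophage-like cells at 3.07 CPM and endothelial-like cells at -2.71 CPM. For Abcb4 the class shares gave -0.396 CPM and the levels -5.76 CPM. Cluster 5 alone gave -3.23 CPM from shares and -3.62 CPM from levels (-6.85 CPM in all). The largest share parts above 0 were those of erythroid-like cells (2.32 CPM) and cluster 6 (1.26 CPM), so that pieces of opposite sign partly cancelled. The MMPhigh means join libraries of unlike make-up, since the unnamed cluster 6 was 46.2% of the cells of MMPhigh 1 and 4.84% of those of MMPhigh 2, neural or neural crest-like cells 17.0% and 34.1% and macrophage-like cells 9.13% and 22.9%. Cluster 6 alone added 12.9 CPM to the difference of Abcg2. The sizes of the parts depended on the scale and on the cell filter, and the cause was not tested. With the stricter filter of at least 5000 UMIs and 2000 genes Abcg2 divided into -68.8 CPM from shares and -20.6 CPM from levels and Abcc4 into -12.4 and -1.89 CPM. With the looser filter Abcc1 divided into -0.916 and -7.67 CPM. The share part of Abcb4 was above 0 with the stricter filter (1.19 CPM), with the looser filter (3.56 CPM) and at Leiden resolution 0.5 (1.40 CPM). With CPM of the sums instead of thinned cells, Abcb1a divided into -10.3 CPM from shares and 4.92 CPM from levels, Abcg2 into -61.9 and -27.7 CPM and Abcc4 into -12.6 and -5.91 CPM. On that scale Abcc1 divided into -4.10 and -6.36 CPM and Abcb4 into 6.25 and -7.97 CPM. The difference of Abcb1b, 0.212 CPM over thinned cells (3.54 from shares and -3.32 from levels), became -0.976 CPM (2.33 and -3.31). The larger part thus switched for Abcg2, Abcc4, Abcc1 and Abcb1b, the whole difference of Abcb1b turned its sign, and so did the share part of Abcb4.

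Within classes, MMPhigh was compared with MMPlow in 9 named classes and 4 clusters, those represented by 10 cells or more of each library. The members gave 56 tested pairs of a gene and a class, of which 16 passed the threshold in edgeR (28.6%), 2 higher and 14 lower in MMPhigh. Over all genes and class fits together, 16.7% passed, and 9.12% passed as lower. In the fits with no call among the members, 12.3% of genes passed in megakaryocyte-like, 6.96% in germ cell-like and 2.57% in muscle progenitor-like cells and 0.094% in cluster 6. Of the 16 calls, 2 passed in every one of the 4 fits that left out a library, which were the lower Abcg2 in neural or neural crest-like cells and in cluster 13. Without the filter on low counts, 14 of 78 pairs passed (17.9%), 2 higher and 12 lower. Some called pairs met that filter through MMPlow, since not both MMPhigh libraries reached its cutoff. Among them were Abcb1a and Abcb4 in mesenchymal-like cells, Abcb1b in neural or neural crest-like cells and Abcg2 in epithelial or mesonephric-like cells. For such pairs a lower value in MMPhigh was favoured beforehand. A test of whether the gate difference itself varied among these classes and clusters passed for 5 of the 6 genes, all but Abcb4, as it did for 43.8% of all genes.

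Abcg2 was below 0 in 13 of 13 classes and clusters and passed the test in 7. How many other genes lay below 0 in every fit was not counted. The median log2 fold of all genes was -0.164 in endothelial-like cells, close to that of Abcg2 (-0.17). In the other fits that median lay between -0.0565 and 0.00689. In neural or neural crest-like cells, where 26.3% of genes passed, the 77.7 and 73.8 CPM of MMPlow did not overlap the 45.9 and 47.2 CPM of MMPhigh (log2 fold -0.64, SE 0.11, adjusted p = 0.00224 in edgeR). With cluster 25 left out of this class, Abcg2 stood at 76.8, 71.7, 45.7 and 44.95 CPM (log2 fold -0.66, adjusted p = 0.00237 in edgeR), where 28.2% of genes passed. In erythroid-like cells, where 8.53% passed, Abcg2 stood at 124.9, 135.0, 86.3 and 91.5 CPM (log2 fold -0.55, adjusted p = 0.00750 in edgeR). In macrophage-like cells (clusters 10 and 11), where 40.9% passed, it stood at 94.99, 84.99, 58.6 and 54.8 CPM (log2 fold -0.40, adjusted p = 0.0101 in edgeR), and in cluster 11 alone at 76.3, 76.75, 58.8 and 54.9 CPM. The other calls were in cluster 13 (log2 fold -1.37, 25.7% of its genes called), cluster 5 (-0.55, 24.2%), cluster 12 (-0.37, 24.2%) and epithelial or mesonephric-like cells (-1.28, 12.9%). The last rests on 50, 69, 5 and 15 UMIs, and MMPhigh 1 lay below the cutoff of the filter on low counts. With 1 library left out, the call ended in erythroid-like cells without MMPlow 1 or MMPlow 2 (log2 folds from -0.58 to -0.50), in macrophage-like cells without MMPhigh 2 (from -0.45 to -0.33), in cluster 5 without either MMPhigh library (from -0.60 to -0.46), in cluster 12 without any 1 of the 4 (from -0.46 to -0.29) and in epithelial or mesonephric-like cells without MMPlow 2 or MMPhigh 1 (from -2.27 to -0.72). The calls in macrophage-like and epithelial or mesonephric-like cells and in clusters 5 and 12 also ended with DESeq2's Wald test and with thinned cells. Those in clusters 5 and 12 ended without the filter on low counts, that in cluster 12 with the stricter cell filter and that in epithelial or mesonephric-like cells with 6% of cells removed as doublets. Abcg2 did not pass in endothelial-like cells, where the levels were 198, 222, 196 and 189 CPM (log2 fold -0.17, adjusted p = 0.666 in edgeR), nor in germ cell-like cells (-0.31, adjusted p = 0.502 in edgeR) or mesenchymal-like cells (-0.11, adjusted p = 0.578 in edgeR). The mesenchymal-like clusters differed, with cluster 3 at 72.3, 69.9, 49.3 and 47.1 CPM and cluster 14 at 120.7, 137.1, 211.6 and 136.3 CPM. Cluster 22 stood at 138.7, 113.9, 77.3 and 98.75 CPM, from 13 and 15 cells in MMPhigh 1 and 2.

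The endothelial gauge genes moved with these values. Pecam1, Cdh5 and Emcn together stood at 274 and 250.4 CPM in the neural or neural crest-like cells of MMPlow and at 7.47 and 3.34 CPM in those of MMPhigh, and at 418, 287, 55.6 and 51.9 CPM in macrophage-like cells. In each of the 12 other classes and clusters tested, their sum was higher in both MMPlow libraries than in both MMPhigh libraries. When the RNA that this gauge predicts from the endothelial-like cells of the same library was subtracted from every class, Abcg2 in neural or neural crest-like cells became 49.0 and 46.4 CPM in MMPlow and 45.0 and 46.9 CPM in MMPhigh, which overlap (log2 fold -0.21, adjusted p = 0.256 in edgeR). In macrophage-like cells it became 51.3, 53.6, 51.8 and 50.2 CPM (log2 fold -0.07, adjusted p = 0.727 in edgeR). In cluster 13 its log2 fold became -0.19 (adjusted p = 0.814 in edgeR). In erythroid-like cells Abcg2 remained at 113.6, 124.6, 85.1 and 90.6 CPM (log2 fold -0.56, adjusted p = 0.0153 in edgeR), with gauge genes at 107.4, 94.75, 10.2 and 9.79 CPM. As deposited, that call ended when cells were thinned to 2000 UMIs (log2 fold -0.29, adjusted p = 0.802 in edgeR) and at Leiden resolution 2 (-0.87, adjusted p = 0.371 in edgeR). The thinned shares of erythroid-like cells with a UMI of Abcg2 overlapped, at 21.2% and 21.2% in MMPlow and 15.1% and 22.4% in MMPhigh. In cluster 5 it remained at 124.6, 128.4, 79.0 and 80.4 CPM, with no overlap, and just missed the threshold (log2 fold -0.54, adjusted p = 0.0601 in edgeR). Of the 14 called pairs that could be tested after the subtraction, 7 were still called, of which 1 was of Abcg2. The subtraction takes every UMI of the 3 gauge genes in other classes as endothelial RNA. Cells sorted as CD31+ may make Pecam1 themselves, in which case too much was taken off, and this was not tested. In MMPhigh 1 and 2 it rests on the RNA of 16 and 14 endothelial-like cells.

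**Figure D4:**
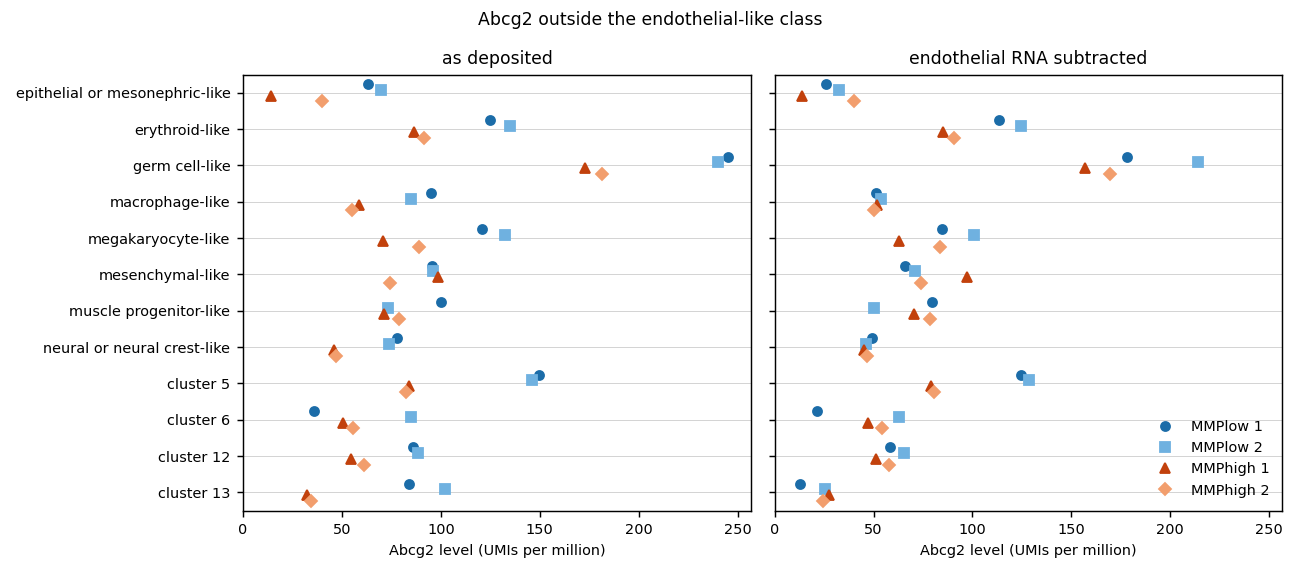
CPM of Abcg2 (horizontal axes) by class or cluster other than endothelial-like (vertical axis), as deposited and after subtraction of the endothelial RNA predicted from Pecam1, Cdh5 and Emcn, each point 1 library. In neural or neural crest-like cells the gates lie apart as deposited (77.7 and 73.8 against 45.9 and 47.2 CPM) and overlap after the subtraction, while in erythroid-like cells they lie apart in both.

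Abcb1a was tested in 2 classes and called in both, in opposite directions. In mesenchymal-like cells it met the filter on low counts through the MMPlow libraries alone. In endothelial-like cells, where 1.34% of genes passed, it was higher in MMPhigh, at 28.5 CPM (exact 95% Poisson interval 11.46 to 58.7) from 7 UMIs in 16 cells and 48.6 CPM (28.3 to 77.8) from 17 UMIs in 14 cells, against 10.3 and 11.9 CPM in MMPlow (log2 fold 1.81, SE 0.39, adjusted p = 0.0262 in edgeR). The call was lost without MMPlow 1, without MMPlow 2, without MMPhigh 2 and after thinning, with log2 folds from 1.34 to 1.93 and adjusted p between 0.395 and 1.00 in edgeR. The mix of endothelial clusters differed between the gates, and few cells carried the values. The 7 UMIs of MMPhigh 1 came from 2 cells, with 3 UMIs in a cell of cluster 2 and 4 in a cell of cluster 16. The 17 UMIs of MMPhigh 2 came from 4 cells, with 15 UMIs in 3 cells of cluster 2. With cells thinned to 2000 UMIs the MMPhigh libraries lay on opposite sides of the 1.99% and 2.23% of MMPlow, with 0 of 16 cells in MMPhigh 1 and 3 of 14 (21.4%) in MMPhigh 2 holding a UMI. At the cluster levels of MMPlow, the mix of clusters alone would give 6.28 and 14.1 CPM. In mesenchymal-like cells, where 20.2% of genes passed, Abcb1a was lower in MMPhigh, at 1.37 and 1.31 CPM against 0 and 0.103 CPM, from 11, 13, 0 and 1 UMIs (adjusted p = 0.00804 in edgeR). The ratio of MMPlow to MMPhigh was 19.6 (exact 95% interval 3.19 to 804, counting error only). The gauge genes fell in this class as well, from 280.4 and 229 to 9.25 and 6.87 CPM, and it could not be tested after the subtraction, which left too few UMIs for the filter on low counts. DESeq2 did not call it (adjusted p = 0.116).

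Abcb1b did not pass the test in the cells that held it at the highest level. In macrophage-like cells (clusters 10 and 11) the log2 fold was 0.02 (adjusted p = 0.945 in edgeR) and in cluster 12 it was -0.08 (adjusted p = 0.783 in edgeR), with the per-library values given above. Of 8 classes tested, it was called in neural or neural crest-like cells alone, at 3.51 and 3.17 CPM in MMPlow and 0.547 and 0.745 CPM in MMPhigh, from 9, 10, 6 and 29 UMIs (log2 fold -2.22, SE 0.51, adjusted p = 0.0111 in edgeR). That call was lost in each of the 4 fits without a library (log2 folds from -2.50 to -2.08) and kept without cluster 25 (-2.45, adjusted p = 0.00837 in edgeR). There Abcb1b met the filter on low counts through the MMPlow libraries alone. Abcb4 was called lower in 2 of 9 classes, cluster 5 (142 and 107.6 against 65.4 and 67.6 CPM, log2 fold -0.62, adjusted p = 0.0178 in edgeR) and mesenchymal-like cells (5.10 and 3.33 against 1.03 and 1.13 CPM, log2 fold -1.87, adjusted p = 0.0075 in edgeR). The gates did not overlap in either, and both calls remained after the subtraction but not with DESeq2's Wald test (adjusted p = 0.0790 and 0.0640). In mesenchymal-like cells Abcb4 reached the cutoff of the filter on low counts in both MMPlow libraries but not in MMPhigh 1. For that pair a lower value in MMPhigh was favoured beforehand. The call in cluster 5 ended without MMPlow 1, MMPhigh 1 or MMPhigh 2 (log2 folds from -0.72 to -0.48), without the filter on low counts and with thinned cells, and that in mesenchymal-like cells without MMPlow 1 or MMPlow 2 (from -2.15 to -1.55). In erythroid-like cells Abcb4 did not pass (log2 fold -0.30, adjusted p = 0.121 in edgeR).

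Abcc1 was called in macrophage-like cells among 12 classes, at 38.9 and 33.1 CPM in MMPlow and 16.9 and 21.8 CPM in MMPhigh (log2 fold -0.59, adjusted p = 0.0106 in edgeR), without overlap, a call that ended without MMPlow 1 or MMPhigh 1 (log2 folds from -0.80 to -0.43) and at Leiden resolution 2 (log2 fold -0.49, adjusted p = 0.0698 in edgeR). It also just missed the threshold with the stricter cell filter (-0.66, adjusted p = 0.0584 in edgeR) and with DESeq2's Wald test (adjusted p = 0.0562). The gates held different clusters of this class: cluster 10, most of the MMPlow cells, stood at 42.1 and 38.2 CPM there. In cluster 11 alone Abcc1 stood at 28.8 and 24.7 CPM in MMPlow and 16.75 and 21.5 CPM in MMPhigh, a smaller gap without overlap. In the other classes it lay on both sides of 0, such as megakaryocyte-like cells at 63.9, 50.3, 58.7 and 70.1 CPM (log2 fold 0.34, adjusted p = 0.248 in edgeR). Its highest class, the progenitor-like cells, had too few cells in MMPhigh for a test. Abcc4 was called in 3 of 12. It was lower in neural or neural crest-like cells, at 16.4 and 11.1 against 4.46 and 5.58 CPM (log2 fold -1.35, SE 0.27, adjusted p = 0.00624 in edgeR), a call that ended without MMPlow 1 (-1.05) and after the subtraction (log2 fold -0.91, adjusted p = 0.116 in edgeR). Without cluster 25 it was kept (-1.46, adjusted p = 0.00518 in edgeR). It was lower in macrophage-like cells, at 24.5 and 22.7 against 9.90 and 13.3 CPM (log2 fold -0.72, adjusted p = 0.00858 in edgeR), and not called without MMPhigh 1 (log2 folds with 1 library left out from -0.97 to -0.55). Most of the MMPlow cells of that class were of cluster 10, and in cluster 11 alone Abcc4 stood at 15.02 and 11.51 CPM in MMPlow and 9.99 and 13.3 CPM in MMPhigh, which overlap. The call also ended with DESeq2's Wald test (adjusted p = 0.0514), with the stricter cell filter (log2 fold -0.11) and at Leiden resolution 2 (log2 fold -0.39, adjusted p = 0.210 in edgeR). In epithelial or mesonephric-like cells it was higher in MMPhigh (log2 fold 1.29, SE 0.34, adjusted p = 0.0243 in edgeR), with no overlap of the gates, and the call ended without MMPlow 1, without MMPhigh 2 (log2 folds from 0.98 to 1.54) and with DESeq2's Wald test (adjusted p = 0.252). With cells thinned to 2000 UMIs the direction was not kept, since 5.88% and 4.35% of these cells held a UMI in MMPlow and 1 of 20 cells (5%) and 0 of 17 cells in MMPhigh, too few UMIs for a test. In endothelial-like cells Abcc4 stood at 37.0, 39.8, 32.6 and 42.9 CPM, and the gates overlapped (log2 fold -0.03, adjusted p = 0.974 in edgeR).

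**Figure D5:**
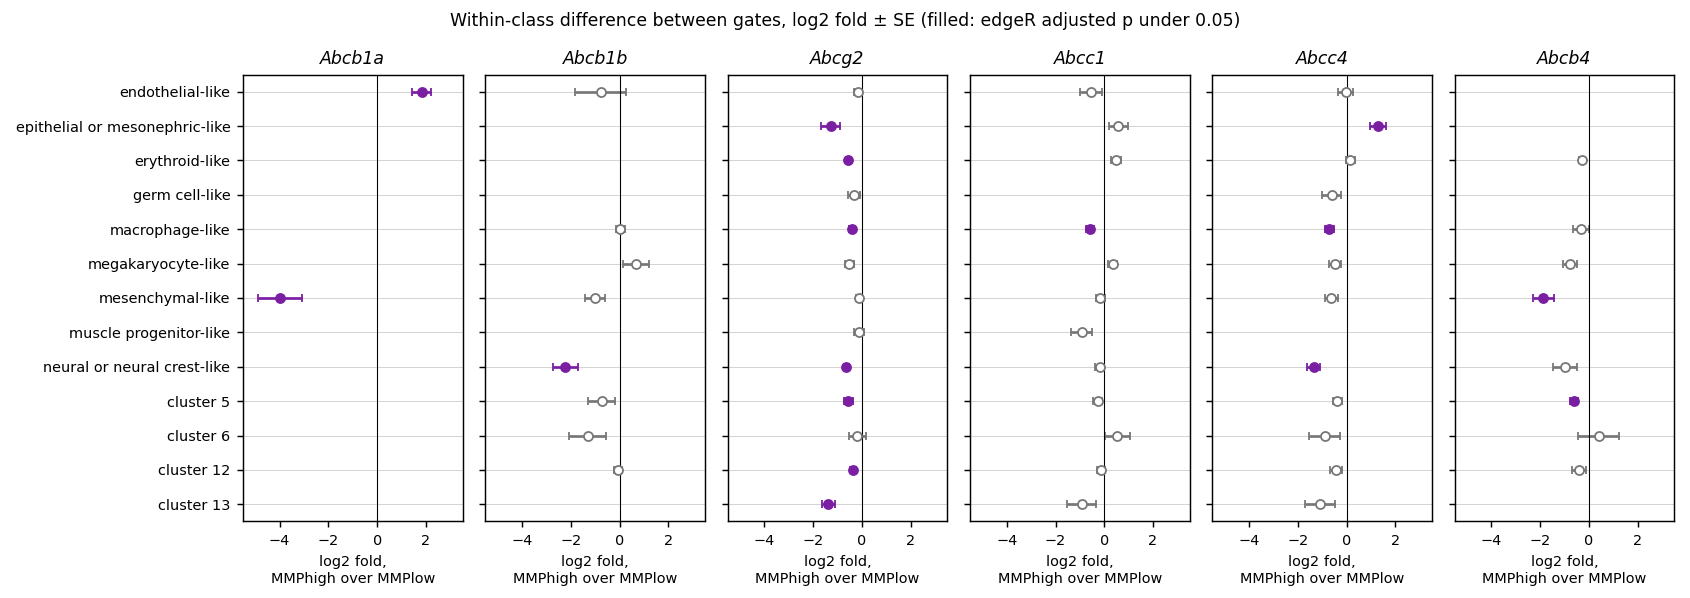
Log2 fold of MMPhigh over MMPlow (horizontal axis) for each pump gene in each class or cluster tested, with bars of 1 SE and filled points for adjusted p under 0.05 in edgeR. Abcg2 lies below 0 in all 13, and Abcb4 in endothelial-like cells (log2 fold -8.81, SE 5.06, 0 UMIs in MMPhigh) is left out.

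Other ABC transporters did not share a direction over all cells, where 5562 of the 20416 genes tested were called higher in MMPhigh and 5410 lower (26.5%). Of 8 further genes of the ABCC family, 7 were tested, 3 passed as higher in MMPhigh and 2 as lower, with a median log2 fold of 0.15 against 0.01 over all genes. Abcc9, a subunit of potassium channels of vessel walls, went from 26.55 and 25.55 to 1.29 and 1.33 CPM (log2 fold -4.28, adjusted p = 1.83e-07 in edgeR), and Abcc8, its pancreatic and neuronal counterpart, from 0.274 and 0.368 to 2.06 and 2.67 CPM (log2 fold 2.90). Of 13 lipid transporters tested, 3 were higher, among them Abcg4 (log2 fold 1.49), and 4 lower, among them Abca4 (-1.67). Of 9 tested regulators known to act on pump genes, 4 fell in edgeR, led by the hypoxia factor gene Epas1 (log2 fold -4.47), which endothelium is known to express, and the xenobiotic receptor gene Ahr (-2.26). Of 10 barrier-type endothelial genes, 8 fell and 1 rose in edgeR, the former led by Sox17 (-5.59) and Cldn5 (-5.10). Both were also among the marker genes that named the endothelial-like class. That class was 48.7% and 47.3% of the cells of the MMPlow libraries and 0.363% and 0.411% of those of MMPhigh. A fall of such genes over all cells was therefore favoured beforehand.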

How the data were processed

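The deposited matrices hold counts of UMIs per gene and barcode, without normalization, from 10x Genomics 3' v3 libraries per the labels' protocols. The file headers name Cell Ranger 7.0.1 and the submitters' processing notes Cell Ranger 2.1.1 and mm10; whether introns were counted is not given in the sources used here. Barcodes had been selected before deposit, the smallest with 962 UMIs in MMPlow 1 and 500 elsewhere.

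Barcodes with at least 2000 UMIs, 1000 genes and under 25% of UMIs from 13 mitochondrial genes were kept. Scrublet (scanpy 1.11.5) removed 887, 1137, 0 and 78 doublets and is taken not to have worked in MMPhigh 1. Clustering on 2000 variable genes without ABC transporter genes (30 principal components, 15 neighbours, Leiden resolution 1) gave 28 clusters, of which 22 were named in 11 classes from 12 marker lists (mean log2 fold at least 0.5 and 0.25 above the next list, set after clusters of these data had been seen). UMIs were summed per class and library and tested with edgeR 4.0.16 (R 4.3.3; TMM, filterByExpr), with DESeq2 1.42.0 as an alternative, after tests on simulated counts. The exact permutation test over 2 against 2 libraries, set for shares of cells, cannot give a p under 0.3333, and no such p is printed. All 6 members are reported, and other genes from fixed lists where past the threshold, the largest first. The members and lists were chosen with earlier results of these data known.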

Additional observations from a re-analysis of the deposited data

Results flagged for a closer look

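For 5 of the 6 pump genes the difference between the gates varied among the 13 classes and clusters, by edgeR's quasi-likelihood test of all 12 class by gate terms together, with the library as a block and adjustment over 16737 genes, of which 43.8% passed. The adjusted p was 1.18e-05 for Abcb1a, 0.0166 for Abcb1b, 0.0027 for Abcg2, 0.00181 for Abcc1 and 0.000225 for Abcc4 in edgeR. For Abcb1a this rests on few counts, since it met the count filter in 2 of the single class fits. Its endothelial-like cells in MMPhigh 1 and 2 were 16 and 14. Abcb4 did not pass (adjusted p = 0.0787 in edgeR), and passed without the filter on low counts (0.0167). The UMIs of Pecam1, Cdh5 and Emcn in other classes also differed between the gates, and the part of endothelial RNA in these values was not tested.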

How the results depend on the processing

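Over all retained cells the number of called pump genes stayed within 1.5 times of 4 in every setting run. The number of called pairs of a pump gene and a class moved from 16 to 6 with DESeq2's Wald test, 9 with the stricter cell filter, 5 with thinned cells, 8 after the subtraction of endothelial RNA (chosen after seeing the data) and 9 at Leiden resolution 2. It lay between 6 and 14 when single libraries were left out, where the lone library of a gate is assumed to vary like the other gate. It stayed at 16 with cluster 25 left out of the neural or neural crest-like class (also chosen after seeing the data). Fewer pairs could be tested in most of these settings, 36 of 56 after thinning. Over all cells Abcb1b turned to 0.12 (log2 fold) after thinning. With single libraries left out it lay between -0.3951 (without MMPhigh 2) and 0.0471 (without MMPhigh 1), and Abcb4 between -0.3142 and 0.0655 in the same fits, none of them called. With the replicate number as a block, 19 pairs were called; same-numbered libraries deviated together with a correlation of 0.138 over 20416 genes, and with 2 numbers per gate this shows no pairing. Of the values of single genes, 190 kept direction and call under other settings, 35 lost the call and 1 gained it; with a library left out, 55 kept them and 29 lost the call. The highest named class of MMPlow changed to endothelial-like for Abcg2 and Abcc4 under the stricter filter. Classes with fewer than 10 cells in a MMPlow library were not ranked. The median depth of germ cell-like cells (3083 and 3952 UMIs) lay below the 5000 UMIs of that filter, and whether they were still ranked is not given here. The highest class changed to granulocyte or mast-like for Abcc1 at resolution 0.5, and at resolution 2 to lymphoid-like for Abcb1b and progenitor-like for Abcb4. The endothelial values of MMPhigh, from 30 cells, are imprecise. So are those of other small classes, such as progenitor-like cells of MMPhigh 1 and 2 (2 and 15 cells) and germ cell-like cells of MMPlow 1 and 2 (29 and 30 cells).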

Other observations

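The shares of cells with a UMI of any pump gene are given as values, without a background taken off. With each cell thinned to 2000 UMIs, a UMI of at least 1 of the 6 pump genes was found in 55.5% and 52.5% of haematopoietic progenitor-like cells of MMPlow 1 and 2, in 55.1% and 55.4% of cells of cluster 5 and in 41.6% and 43.9% of endothelial-like cells. Neural or neural crest-like cells held one in 21.6% and 19.5% in MMPlow and in 12.3% and 12.8% in MMPhigh. UMIs of Pecam1, Cdh5 and Emcn in these neural cells also fell, from 274 and 250.4 to 7.47 and 3.34 CPM, and the gates overlapped for Abcg2 after subtraction of endothelial RNA, so that the shares are not read as expression or as a difference between the gates. Cells with UMIs of 2 or more of the genes were 17.4% and 14.5% of cluster 5, against 5.57% and 5.49% of all retained cells of MMPlow and 1.02% and 1.97% of those of MMPhigh. These shares cover what 2000 UMIs can show and got no test.

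Genes that bear on dye uptake by way of the mitochondrion were tested over all cells and within classes. Of 5 such genes tested over all cells, 4 were higher in MMPhigh in edgeR, where 5562 of all 20416 genes were: the uncoupling protein gene Ucp2, from 54.6 and 49.99 to 88.4 and 94.6 CPM (log2 fold 0.84, adjusted p = 8.68e-05 in edgeR), the nucleotide carrier genes Slc25a4 and Slc25a5 (0.42 each) and Ppif (0.43). Vdac1 did not pass. Within classes, all 5 were higher in cluster 12 (24.2% of its genes called in either direction) and 4 of 5 in cluster 5 (24.2%) and in macrophage-like cells (40.9%). Of them 2 were higher in erythroid-like (8.53%), megakaryocyte-like (12.3%) and germ cell-like cells (6.96%), the last with 4 tested. In mesenchymal-like cells (20.2%) and in cluster 13 (25.7%) 1 was higher and 1 lower, and in neural or neural crest-like cells (26.3%) 1 was lower. In endothelial-like (1.34%), epithelial or mesonephric-like (12.9%) and muscle progenitor-like cells (2.57%) and in cluster 6 (0.094%) 0 of 5 were called. Whether the classes differ in this was not tested.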
